A study of Mus musculus with 6 samples.

Results

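The subject is a set of 54 genes that were silent in cap mesenchyme with 1 intact copy of Dnmt1 and gave reads in every library of the Dnmt1 knockout. A gene was taken when its estimated counts summed to at most 3 over the 3 heterozygous libraries and reached at least 10 in each of the 3 knockout libraries. Of 26567 genes measured, 6910 were silent by that limit, and 159 of them met the rule, which was 2.3% of the silent genes and 0.598% of all genes. A filter on gene symbols then dropped 105 of the 159: 68 predicted genes, and others that belong to large germline, X-linked, cleavage-stage and protocadherin families or to a list of single germline genes. Of the 3407 silent genes that the filter kept, 54 met the rule (1.58%). The rule in the opposite direction, silent in the knockout and at least 10 counts in each heterozygous library, took 3 of the 26567 genes (0.0113%). The members were chosen on the counts of these 6 libraries, so their difference between the groups is given as a description, without a test.

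Cap mesenchyme is the tissue around the tips of the ureteric bud that holds the progenitors of the nephron. The cells came from kidneys of C57BL/6 mouse embryos at day 18.5 and were isolated by fluorescence-activated sorting. Both groups carried a Cre recombinase driven by Six2, a gene of these progenitors, and conditional alleles of Dnmt1. The labels give the genotypes as Dnmt1 +/- (heterozygous) and Dnmt1 -/- (homozygous knockout), with 3 libraries in each group. Recombination by this Cre reaches cells that express Six2 and their descendants, so other cells in the sorted fraction would keep Dnmt1. The labels do not say whether a library came from 1 embryo or from pooled embryos, and a p-value therefore reflects nothing but the spread among these samples. Each library was made from 50 ng of RNA with an ultra low input protocol.

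Dnmt1 is the enzyme that copies DNA methylation from the parental to the new strand when DNA is replicated, and cells that divide without it dilute the mark. Methylation of CpG sites in a promoter is one of several ways in which a gene is held silent in tissues that do not use it. Genes of the germ line are the group best known to depend on it, because many of their promoters carry an intermediate or high density of CpG sites and are methylated in somatic cells. Promoters with few CpG sites, such as those of most olfactory receptor genes, offer little sequence for the mark.

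The promoters of 6 members show how far the set ranges in the sequence that Dnmt1 acts on. Each covers 250 bases before and 50 bases after the annotated start, from RefSeq on GRCm38.p6, read 5′ to 3′ on the strand of the gene, with every CpG in capitals. Olfr58 (chr9:19780033-19780332, plus strand) is an olfactory receptor with no CpG in this window. Apoh (chr11:108395047-108395346, plus strand), a plasma glycoprotein made by the liver, has 5. Cyct (chr2:76360404-76360703, minus strand), the cytochrome c of the testis, has 8. Rpl10l (chr12:66284352-66284651, minus strand), a ribosomal protein copy used in spermatocytes, has 13. Duoxa2 (chr2:122298650-122298949, plus strand), the maturation factor of a thyroid and epithelial oxidase, has 19. Cyp26a1 (chr19:37697558-37697857, plus strand), the enzyme that degrades retinoic acid, has 26.
Olfr58: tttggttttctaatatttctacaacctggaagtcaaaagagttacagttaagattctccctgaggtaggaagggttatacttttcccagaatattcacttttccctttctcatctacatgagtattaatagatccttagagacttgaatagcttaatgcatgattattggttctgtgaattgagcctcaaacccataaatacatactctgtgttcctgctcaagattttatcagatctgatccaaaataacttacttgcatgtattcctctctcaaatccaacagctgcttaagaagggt
Apoh: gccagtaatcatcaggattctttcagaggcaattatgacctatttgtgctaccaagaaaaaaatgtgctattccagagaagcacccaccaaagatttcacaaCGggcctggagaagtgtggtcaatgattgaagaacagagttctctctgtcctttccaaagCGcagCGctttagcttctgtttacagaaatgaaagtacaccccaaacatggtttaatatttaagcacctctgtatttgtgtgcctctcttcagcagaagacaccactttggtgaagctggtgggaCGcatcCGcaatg
Cyct: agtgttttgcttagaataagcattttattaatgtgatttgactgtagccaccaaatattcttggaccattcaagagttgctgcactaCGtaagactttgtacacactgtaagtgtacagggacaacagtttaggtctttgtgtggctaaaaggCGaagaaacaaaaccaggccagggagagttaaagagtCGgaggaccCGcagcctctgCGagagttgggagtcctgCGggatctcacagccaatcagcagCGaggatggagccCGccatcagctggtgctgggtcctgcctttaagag
Rpl10l: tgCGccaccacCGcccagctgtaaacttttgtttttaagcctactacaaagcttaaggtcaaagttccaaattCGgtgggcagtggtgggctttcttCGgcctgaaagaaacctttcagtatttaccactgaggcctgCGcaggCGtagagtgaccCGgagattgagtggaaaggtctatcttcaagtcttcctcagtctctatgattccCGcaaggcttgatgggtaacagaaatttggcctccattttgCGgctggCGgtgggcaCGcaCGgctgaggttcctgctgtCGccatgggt
Duoxa2: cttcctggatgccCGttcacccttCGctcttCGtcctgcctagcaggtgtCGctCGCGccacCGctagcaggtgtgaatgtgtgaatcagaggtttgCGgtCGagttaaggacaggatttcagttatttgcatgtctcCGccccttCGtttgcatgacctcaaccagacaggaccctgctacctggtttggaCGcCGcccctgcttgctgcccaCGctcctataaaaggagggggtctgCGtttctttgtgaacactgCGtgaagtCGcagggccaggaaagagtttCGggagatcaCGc
Cyp26a1: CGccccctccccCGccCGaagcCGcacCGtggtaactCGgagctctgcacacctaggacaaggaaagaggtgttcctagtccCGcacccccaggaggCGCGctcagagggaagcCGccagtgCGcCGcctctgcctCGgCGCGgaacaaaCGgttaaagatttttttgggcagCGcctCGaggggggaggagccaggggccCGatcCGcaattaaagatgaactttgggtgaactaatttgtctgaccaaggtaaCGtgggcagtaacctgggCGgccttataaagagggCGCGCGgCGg

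RefSeq promoters were matched for 36 of the 54 members, some with more than 1 start, which gave 40 promoters. They held between 0 and 28 CpG sites with a median of 6. The median was 1 over 1844 promoters of genes that the symbol filter kept and that stayed silent in both groups, and 7 over all 32851 promoters. The search covered 4 motifs on both strands. The E-box CACGTG was in 3 of the 40 promoters, those of Krtap5-5, Adad2 and Prss45, a share of 7.5% against 7.15% of all promoters and 2.82% of the promoters that stayed silent. TGACGTCA was in none of the 40 and in 1.79% of all promoters, the NRF1 core (GCGC on either side of 2 bases of any kind) in none and in 6.23%, and TTCCCGCC in none and in 2.19%. These are matches of letters in 300 bases, and a missing match says nothing about a factor.

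A wider window of 500 bases on each side of the 5′ end of the leading transcript, the transcript with most of the gene's counts, was read for all 54 members. The observed over expected CpG ratio, which is near 1 in CpG islands and low where methylation has eroded the sites, had a median of 0.28 among members, with quartiles of 0.16 and 0.43. Genes that stayed silent had a median of 0.14 (n = 2751), or 0.16 without the olfactory and vomeronasal receptor families (n = 1394), and all 26567 genes had 0.42. A ratio of at least 0.6 was found for 7 members (13.0%), against 3.82% of the genes that stayed silent (7.46% without the olfactory and vomeronasal receptors) and 37.7% of all genes. These 7 were Cyp26a1 with 0.73, Rpl10l with 0.72, Ecel1 with 0.66, Gabrd with 0.65, Duoxa2 with 0.64, Pramel3 with 0.63 and Kcnj8 with 0.62. A ratio under 0.3 was found for 29 members (53.7%), against 87.4% of the genes that stayed silent (78.1% without those receptors). The share among all genes was 39.4%. The ratio was 0.00 for Cyp4a12b, 0.03 for Olfr857 and 0.05 for Krtap5-5, so genes with almost no CpG around the start were also in the set. The 105 switched-on genes that the filter dropped had a median of 0.30. Among members whose leading transcript was single copy in the genome the median was 0.33 (n = 41). Genes are not replicates, so these shares are descriptions of the sets.

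**Figure D1:**
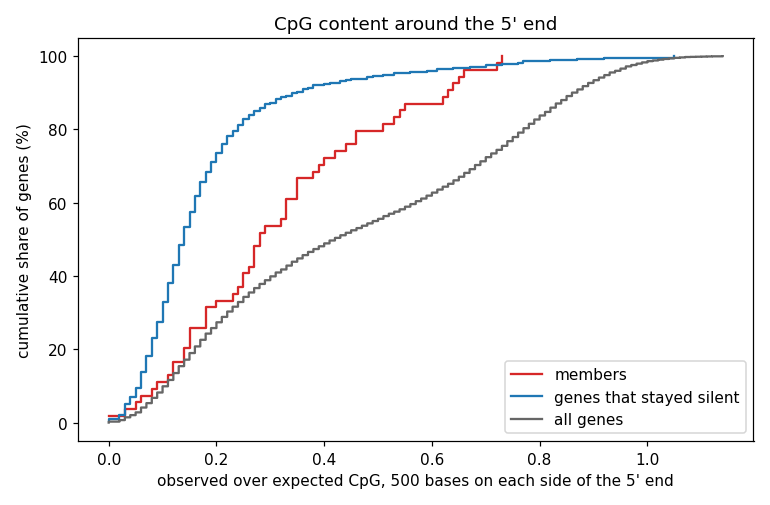
Cumulative share of genes (y axis, in percent) against the observed over expected CpG ratio within 500 bases of the 5′ end (x axis), for the 54 members, for genes that stayed silent (kept by the symbol filter) and for all genes; the 2 larger sets are drawn from 1 gene in 10, taken in order of the ratio. The curve of the members lies between the other curves over most of its length, with medians of 0.28, 0.14 and 0.42.

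The depth was 46741667 to 61585484 estimated counts per library, and 3 counts in 1 heterozygous library corresponded to 0.051 to 0.0662 normalised CPM, a floor that covers counting error only. Dnmt1 itself, which checks the labels, measured 40.0, 52.4 and 51.7 CPM with 1 allele deleted against 20.9, 18.6 and 14.9 CPM with both deleted (log2 fold change -1.41 ± 0.15, where ± gives the SE; adjusted p = 0.000264 by edgeR's quasi-likelihood test with Benjamini-Hochberg adjustment), and the groups did not overlap. The same test over 16989 genes called 836 higher in the knockout (4.92%) and 327 lower (1.92%). Of these calls 71.9% were higher; with library totals in place of TMM normalisation, which moved the median of all genes to -0.17 on the log2 scale, 28.0% were higher. Without knockout replicate 2 there were 526 higher and 116 lower calls, and without heterozygous replicate 2 or 3 there were 170 or 171 lower calls. The 51 members that could be tested were all among those called higher, which the rule brings about and from which nothing is read; Krt5, Ccr6 and Muc4 did not pass the filter on low counts. Y-linked genes marked heterozygous replicates 1 and 3 and knockout replicate 2 as male and the other 3 libraries as female. The list of 10 cap mesenchyme markers summed to 1710 to 1820 CPM in heterozygous libraries against 1250 to 1520 CPM in knockout libraries, with 2 of the 10 called lower and none higher. The endothelial and ureteric bud lists were higher in knockout replicates 1 and 2 than in any heterozygous library. The 12 endothelial markers summed to 39.9 to 54.9 CPM in the heterozygous libraries and to 235, 104 and 60.3 CPM in knockout replicates 1 to 3. The 10 ureteric bud markers summed to 46.0 to 78.9 and to 271, 142 and 74.7 CPM. This did not hold for every list. The nephron tubule and podocyte sum in knockout replicate 2 was 298 CPM, within the 279 to 312 CPM of the heterozygous libraries. Knockout replicate 3 was above every heterozygous library for the endothelial sum and within their range for the ureteric bud sum. In bulk samples, more cells of a type and more RNA per cell cannot be told apart.

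In the heterozygous libraries the 54 members together summed to 0.0583, 0.306 and 0.419 CPM, and in the knockout libraries to 119, 129 and 112 CPM, which were 5610, 6700 and 5700 counts. No count was found in any heterozygous library for 28 members, 14 had a total above 0 and at most 1, and 12 had a total above 1. For the 29 members with a heterozygous total under 1 count, the level in the knockout was at least 5.32-fold to at least 62.4-fold higher, computed against 3 counts in each heterozygous library, with a median of these bounds of 14.7. For the 25 with 1 to 3 counts, the ratio of knockout to heterozygous counts, scaled by library size, ran from 12.2 to 2340, and its counting interval was wide in every case. Bounds and intervals cover counting error only, and no molecular identifiers are described in the labels.

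**Figure D2:**
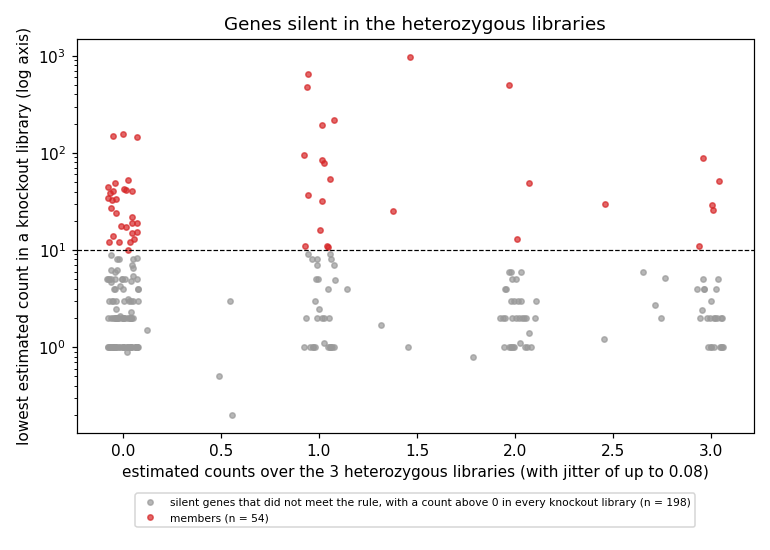
Each point is a gene silent in the heterozygous libraries and kept by the symbol filter, with the sum of its estimated counts in those libraries on the x axis and its lowest count among the 3 knockout libraries on the y axis (log axis; genes with 0 in a knockout library are not drawn). The 54 members lie on or above the dashed line at 10 counts, 28 of them at 0 on the x axis.

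Levels per transcript length were low. The mean TPM (counts corrected for transcript length and library total) over the knockout libraries had a median of 0.756 among the members and ran from 0.0568 for Muc4 to 13.3 for BB287469, and 18 members reached 1 TPM. The highest were BB287469 with 13.3 ± 1.21 TPM (SD, n = 3), Serpinb1c with 12.2 ± 1.81, the pseudogene AA623943 with 9.58, 12.4 and 9.30 TPM in the 3 libraries, and Apoh with 10.2 ± 0.604. Cyct followed with 7.66 ± 1.79 and Nxf3 with 7.52 ± 1.27, and neighbours in that order differed by less than the larger of their SDs, both among the first 4 and between Cyct and Nxf3. Olfr857 with 4.72 ± 1.31 and Duoxa2 with 3.63 ± 0.444 TPM came next.

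**Figure D3:**
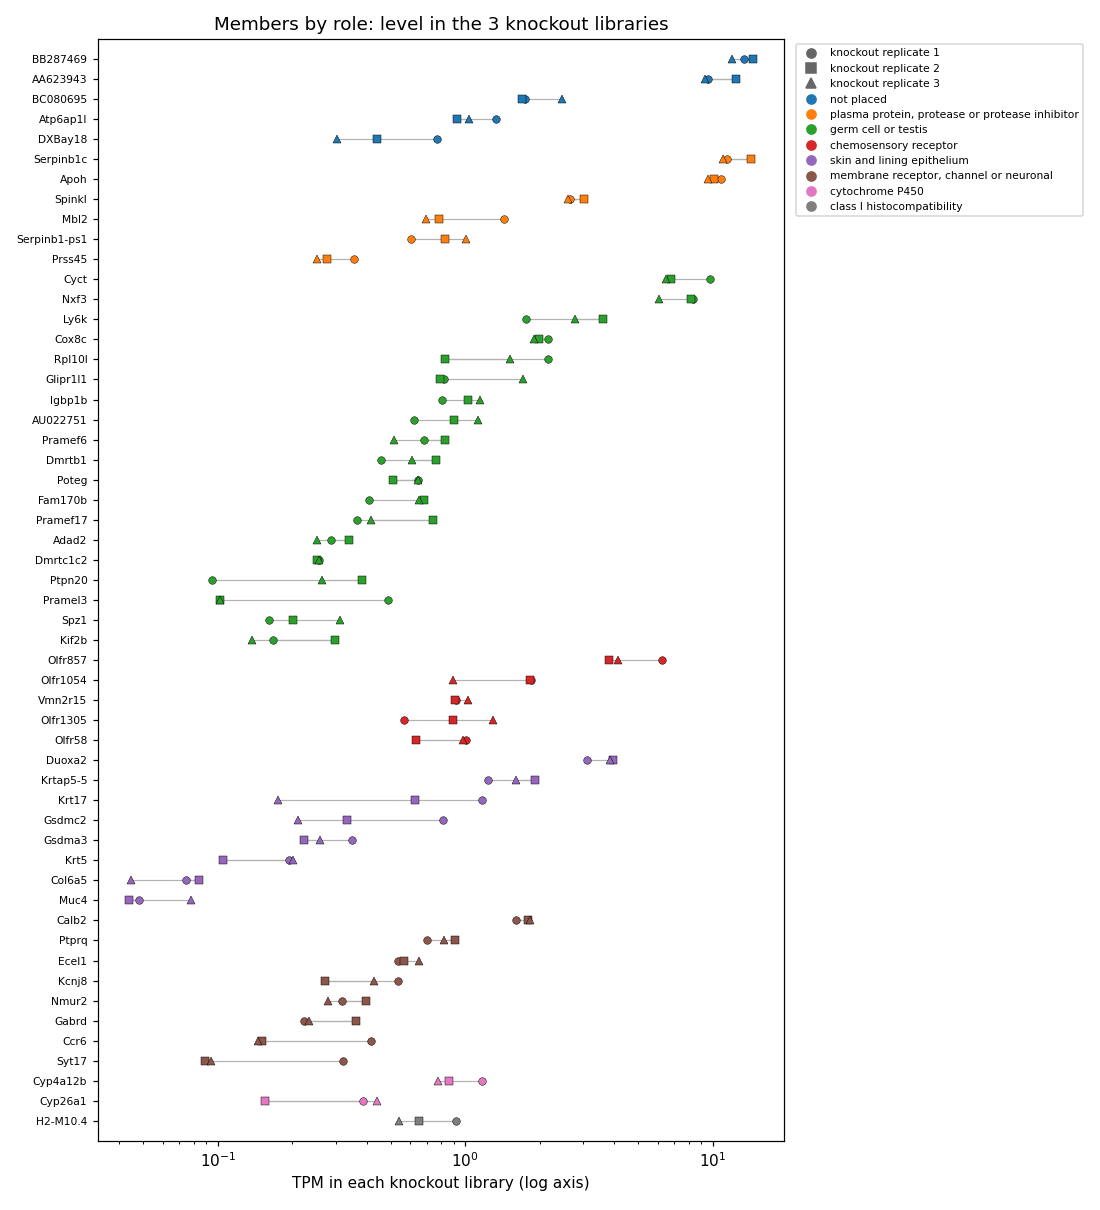
TPM of each of the 54 members in the 3 knockout libraries (x axis, log axis), 1 row per gene, grouped by role and ordered by mean TPM within a role; marker shapes are the replicates and the grey line joins the lowest and the highest. Most members lie between 0.1 and 3 TPM, and 8 lie above 3 TPM on average.

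The label under which the set was proposed places it outside germline families, and that holds for the families named in the filter only. By textbook knowledge 19 of the 54 members are known from germ cells or testis, and they came through because their symbols are not on the list that was dropped. Others are 8 genes of skin and lining epithelia, 8 membrane receptors, channels or neuronal genes, 6 plasma proteins, proteases or protease inhibitors, 5 chemosensory receptors, 2 cytochrome P450 enzymes and 1 class I histocompatibility gene, and 5 were not placed. These roles were assigned after the members were known. The CpG ratio had a median of 0.39 in the 19 genes of germ cells or testis and 0.25 in the other 35 members. A ratio under 0.3 was found for 4 of the 19 (21.1%) and for 25 of the 35 (71.4%). The share was 87.4% among genes that stayed silent, 78.1% of these without olfactory and vomeronasal receptors, and 39.4% among all genes. Members on chromosome X numbered 5 of 54 (Nxf3, AU022751, DXBay18, Pramel3 and Dmrtc1c2), against 44 of the 105 genes dropped. Chromosome X held 107 of the 3407 silent genes that the filter kept and 1934 of all 26567 genes. The filter drops X-linked families by symbol, so nothing is read from the difference between members and dropped genes.

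The germ cell and testis members included several copies of ubiquitous genes. Here and for the later members, estimated counts are given for heterozygous replicates 1 to 3 and then for knockout replicates 1 to 3. Cyct replaces somatic cytochrome c in the respiratory chain of male germ cells. It had 0 counts in all heterozygous libraries and 206, 173 and 156 in knockout replicates 1 to 3, a level at least 61.3-fold higher. Cox8c, a testis form of a cytochrome c oxidase subunit, had 0, 2 and 1 counts and then 29, 32 and 29. Its SD of log2(CPM + 1) was the smallest of all members, at 0.02, a measure that the added 1 CPM shrinks at low levels. By the highest over the lowest level it was as even as Apoh, at 1.08 times each. The retrogene Rpl10l, which stands in for X-linked Rpl10 during meiosis, had 0, 1 and 0 counts and then 80, 37 and 64. Igbp1b, a copy of the phosphatase regulator Igbp1, had 0 counts in every heterozygous library, then 45, 69 and 73 in knockout replicates 1 to 3. In each of these genes the lowest knockout library was above the highest heterozygous library, as the rule requires.

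Regulators of transcription, chromatin and RNA made up a further share. Nxf3, an X-linked nuclear RNA export factor known from testis, had 0, 1 and 0 counts in the heterozygous and 746, 864 and 649 in the knockout libraries, a ratio of 2340 (95% counting interval 420 to 92600). AU022751, listed in RefSeq as Ezhip, encodes an inhibitor of the histone methyltransferase complex PRC2 and is normally found in gonads. It had 0 counts in every heterozygous library, then 52, 87 and 98 in knockout replicates 1 to 3, at least 26.8-fold higher. A further annotation entry of the same symbol covers 99.5% of its leading transcript, but no transcript of that entry was among those counted. Dmrtb1, a transcription factor of spermatogonia, had 0 counts and then 24, 51 and 36. Adad2, an RNA-binding protein of male germ cells, had 0 counts and then 22, 31 and 22. Spz1, a leucine zipper protein of spermatogenesis, lay at the limit of the rule with 10, 15 and 22.

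Proteins of sperm and of the cytoskeleton were also present. Ly6k, a membrane-anchored protein needed for sperm migration, had 0 counts in every heterozygous library, then 42, 86 and 73 in knockout replicates 1 to 3; 29.1% of its leading transcript is shared with an antisense predicted gene, and strandedness of the libraries is not given in the sources used here. Glipr1l1, a sperm surface protein, had 0, 2 and 1 counts and then 26, 30 and 62. Fam170b, an acrosomal protein, had 0 counts and then 27, 54 and 49. Kif2b, a kinesin that shortens microtubules, had 0 counts and then 15, 32 and 14, and Poteg 0 counts and then 43, 41 and 49. Ptpn20, a tyrosine phosphatase known from testis, had 0 counts and then 12, 58 and 38, and here knockout replicate 1 was the low library.

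Members of the Prame family, leucine-rich repeat proteins of germ cells and early embryos, had copies elsewhere in the genome, and their counts are uncertain between copies. Pramef6 (Pramel11 in RefSeq) had 0 counts and then 46.0, 67.6 and 38.6, Pramef17 (Pramel14) had 0, 1.4 and 0 and then 25, 61 and 32.6, and Pramel3 had 0 counts and then 74.7, 18.6 and 17.8. Pramef6 and Pramef17 lie 90.7 kb apart on chromosome 4. The median 31-base word of the leading transcript occurred 2 times in the genome for Pramef6 and Pramef17 and 5 times for Pramel3. The 16.0, 15.8 and 15.3 counts of Dmrtc1c2 are open to the same split, since all its words (100%) occur more than once.

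Genes of the germ line were read in a pair of lists that gave different counts. The first list held 30 germline genes, chosen as dependent on DNA methylation. Of these, 28 could be tested and 24 were called higher and none lower, against 4.92% and 1.92% of all tested genes. The list was chosen with earlier results of these libraries known, so its direction is not independent evidence. Not all of its genes were silent here: Rec8 averaged 17.8 CPM and Brdt 3.89 CPM in heterozygous libraries. Brdt, Sycp3, Tdrd1 and Piwil1 were tested and not called. The sum over this list was 38.0, 34.6 and 37.2 CPM in heterozygous libraries against 1000, 1130 and 960 CPM in knockout libraries, and the groups did not overlap. The genes shared in that sum unevenly. Dazl, Tuba3a, Sohlh2 and Tuba3b had the highest knockout means, at 268, 232, 101 and 99.6 CPM. Sycp1 and Dppa3 averaged 0.478 and 0.214 CPM there, and Pgk2 had 0 counts in the knockout libraries. Dazl, which binds messenger RNAs in germ cells, averaged 0.139 CPM in heterozygous libraries against 268 CPM in knockout libraries, and Ddx4, an RNA helicase of germ cells, 0.196 against 6.73 CPM. The other list held other germ cell markers, from early to mature stages, and markers of the gonad's somatic cells. Of 10 such genes 5 could be tested and none was called. Their sum was 11, 11 and 15 CPM in heterozygous libraries against 15.1, 10.5 and 10.9 CPM in knockout libraries, and the groups overlapped. Prm2, a protamine of sperm, was at 0 in all 6 libraries, and Prm1 and Tnp1 had at most 5 counts and 2 counts in a library.

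Plasma proteins and protease inhibitors included 2 of the 4 members with the highest level per length. Apoh, the plasma glycoprotein that binds phospholipids, had 0, 1 and 0 counts in the heterozygous libraries, then 478, 532 and 483 in knockout replicates 1 to 3, a ratio of 1550 (95% counting interval 278 to 61200). The 3 knockout libraries were close together, at 10.1, 10.3 and 9.49 CPM. Serpinb1c, a relative of the neutrophil elastase inhibitor Serpinb1a, had 2, 0 and 0 counts and then 498.6, 753.8 and 551.9, a ratio of 936 (259 to 7730). Its neighbour Serpinb1-ps1, a pseudogene 18.7 kb away on chromosome 13, had 0, 1 and 0 counts and then 11, 18.1 and 21. Mbl2, a liver lectin that opens the complement cascade, had 0, 0 and 1 counts and then 58, 38 and 32. Spinkl, a protease inhibitor-like gene, had 0, 0 and 2 counts and then 49, 67 and 55. Prss45, a serine protease, had 0, 2 and 0 counts and then 16, 15 and 13.

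Chemosensory receptors were a small share of a large family. The annotation holds 1213 olfactory receptor genes, of which 1124 were silent in the heterozygous libraries and 4 were switched on. Among 385 vomeronasal receptor genes 332 were silent and 1 was switched on. Of all 3407 silent genes that the filter kept, 54 met the rule (1.58%). Olfr857 had 0 counts in every heterozygous library, then 205.9, 151.0 and 155.6 in knockout replicates 1 to 3, at least 58.9-fold higher. Olfr58, 66.5 kb from it on chromosome 9, had 0 counts and then 44.7, 33.5 and 49.1, and both have near copies (53.0% and 57.0% of their words occur more than once). Olfr1054 and Olfr1305, on chromosome 2, had few shared words (4.6% and 0.0%), 0 counts in the heterozygous libraries, and 62, 73 and 34 and then 19, 36 and 49 in the knockout libraries. Vmn2r15 had 0, 1 and 0 counts and then 95.7, 113.1 and 122.3, and also has near copies (52.9% of its words occur more than once). The class I gene H2-M10.4, whose family is known from vomeronasal neurons, had 0 counts and then 48, 42 and 33. Each of these 6 genes was above its heterozygous level in every knockout library, by the rule.

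Genes of skin and lining epithelia included the member with the widest range between knockout libraries, Krt17. Duoxa2 had 0, 1 and 0 counts in the heterozygous and 192.6, 291.5 and 269.0 in the knockout libraries, a ratio of 781 (140 to 30900). It shares 42.8% of its leading transcript with the antisense gene Duoxa1, which had 0, 6 and 11 counts and then 13.4, 26.5 and 19.0 and was not called (adjusted p = 0.248 in the edgeR fit). The hair keratin-associated gene Krtap5-5 had 0, 0 and 1 counts and then 54.1, 100.9 and 79.6, and 59.7% of its words occur more than once. It was the only one of 48 silent Krtap genes to meet the rule. Of all silent genes that the filter kept, 1.58% met it, so nothing is read from this count. Krt17, a keratin of wounded and appendage epithelium, had 0 counts in the heterozygous libraries and 70, 45 and 12 in knockout replicates 1 to 3. Gsdmc2, a pore-forming gasdermin, had 64.2, 31.4 and 18.9 there, but 66.1% of its words occur more than once. Krt5, the keratin of basal cells, had 0, 0 and 1 counts and then 17, 11 and 20, Gsdma3 0, 0 and 1 and then 21, 16 and 17, and the mucin Muc4 0, 0 and 3 and then 11.2, 11 and 13. Col6a5, a collagen VI chain, had 0 counts and then 25.5, 34.2 and 17.4. Muc4 shares 8.3% of its leading transcript with antisense Muc20, which had 59, 103 and 41 counts and then 463.8, 186.0 and 45.0 (adjusted p = 0.265).

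Receptors, channels and neuronal genes had levels of 0.168 to 1.75 TPM. Ptprq, a phosphatase of the hair bundle in the inner ear, had 0, 1 and 0 counts in the heterozygous and 219, 342 and 293 in the knockout libraries, a ratio of 886 (159 to 35000). Calb2, the calcium buffer calretinin, had 1, 2 and 0 counts and then 88, 118 and 114. Ecel1, a neuronal metalloprotease, had 0, 0 and 3 counts and then 60, 76 and 51. Nmur2, a receptor of the peptide neuromedin U, had 0 counts and then 43, 65 and 43, and Gabrd, a subunit of the GABA-A receptor, 0 counts and then 17, 33 and 15. Kcnj8, a potassium channel subunit known from pericytes, had 0, 0 and 2.5 counts and then 48.9, 29.7 and 44.3. Syt17, a synaptotagmin, had 0 counts and then 36.1, 12.0 and 12.0, and Ccr6, a chemokine receptor of lymphocytes, 0, 0 and 1 and then 22.0, 10.8 and 11.3. There were 2 P450 enzymes. Cyp26a1 had 0 counts and then 27, 13 and 35 (0.329 ± 0.152 TPM, SD, n = 3). Cyp4a12b, a fatty acid hydroxylase with near copies, had 0, 1 and 0 counts and then 112.5, 99.2 and 85.0 (0.932 ± 0.206 TPM).

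The members that were not placed included the one with the most counts. BB287469 had 0, 0 and 1.5 counts in the heterozygous and 976.9, 1264.3 and 999.8 in the knockout libraries, but 98.5% of the 31-base words of its leading transcript occur more than once in the genome. AA623943, a pseudogene, had 0, 1 and 0 counts and then 78.9, 123.1 and 87.3. BC080695 had 0 counts and then 145.1, 169.7 and 233.7, DXBay18 0 counts and then 89.9, 61.4 and 40.4, and Atp6ap1l 0 counts and then 59.0, 49.1 and 52.3. In all, 41 members had a single-copy leading transcript and 13 did not, and 5 shared exon bases with another gene.

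Most members were even across the knockout libraries. The highest level was at most 2 times the lowest for 38 members, and the SD of log2(CPM + 1) over the 3 libraries had a median of 0.19 among members and 0.18 among 9911 other genes in the same range of mean CPM. Replicate 1 was highest for 17 members, replicate 2 for 24 and replicate 3 for 13. The highest level was over 3 times the lowest for 5 members: Krt17 (6.30 times), Pramel3 (4.50), Ptpn20 (4.39), Gsdmc2 (3.64) and Syt17 (3.30). Of these, Krt17, Pramel3, Gsdmc2 and Syt17 were highest in knockout replicate 1. Ccr6 and DXBay18 were also highest there and are examples from the 17, not all of them. That library also had the highest sums of endothelial, ureteric bud, stromal and macrophage markers. The nephron tubule and podocyte sum was highest there too, at 415, 298 and 283 CPM in knockout replicates 1 to 3. The stromal list of 10 genes summed to 278 to 353 CPM in the heterozygous libraries and to 757, 410 and 344 CPM in knockout replicates 1 to 3, with 1 gene called higher and 1 lower. The macrophage list summed to 19.8 to 20.8 and to 37.8, 29.7 and 26.4 CPM, with 2 of 11 tested genes called higher. Of the 12 endothelial and 10 ureteric bud markers, 1 of each was called higher, and none was at 0 in any library. The part of these cell types in the levels of the 6 members was not tested. Over all 54 members, 10 followed the order of those sums, highest in replicate 1 and lowest in replicate 3, and 8 had the opposite order.

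The rule was also applied to 5 libraries at a time and read in the sixth. The genes that pass in a knockout library set aside are the 54 members by construction, and those that pass in a heterozygous library include them, so the values below only describe how many genes met the rule in 5 libraries and failed in 1. Chosen without knockout replicate 1, 67 genes met the rule in the other 5 libraries, and 54 of them (80.6%) had at least 10 counts in replicate 1, against 4.08% of the 3407 silent genes. Without replicate 2 there were 62 genes, of which 87.1% passed in that library (background 3.35%), and without replicate 3 there were 71, of which 76.1% passed (background 3.02%). With a heterozygous library set aside, 75, 83 and 69 genes met the rule, and 77.3%, 73.5% and 85.5% of them had at most 3 counts in the library set aside, against 1.26%, 0.828% and 0.992% of the 14017 kept genes with at least 10 counts in each knockout library. Most of those 14017 genes are expressed in heterozygous libraries too, so the low shares among them follow from the choice of background, and nothing is read from the difference.

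Near the limits of the rule, values inside and outside were alike. Just inside were Spz1 (lowest knockout count 10), Ccr6 (10.8), Muc4, Krt5 and Serpinb1-ps1 (11 each) and Ptpn20 (12). Among those just outside were Tekt4, with a lowest knockout count of 9.0, Ankrd22 with 8.8, Olfr859 with 8.3 and Lhcgr with 8.0. Cox7b2, a testis form of another cytochrome c oxidase subunit, missed the rule with 3.6 counts over the heterozygous libraries and had 183.3, 159.7 and 182.6 counts in the knockout libraries.

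Other genes of the members' families were read by symbol stem, the letters before the first digit, for 25 stems with at most 60 genes. There were 359 such relatives, of which 123 were silent in the heterozygous libraries and, by construction, did not meet the rule. Of the 199 relatives that could be tested, 10 were called higher (5.03%) and 5 lower (2.51%), close to the shares over all genes of 4.92% and 1.92%. Leaving out single libraries moved the count of higher calls to 4 (without heterozygous replicate 2), 6 (without knockout replicate 1 or 2) and 21 (without knockout replicate 3). Cox7b2 rose by 6.97 ± 0.40 on the log2 scale (adjusted p = 1.93e-06 in the edgeR fit). Nxf2, an X-linked relative of Nxf3, rose from 0.548 ± 0.0903 to 2.26 ± 0.361 CPM (SD, n = 3 each), by 2.04 ± 0.31 on the log2 scale (adjusted p = 0.00254 in the edgeR fit). Counts summed for Kif24, a kinesin of the centriole and a relative of Kif2b, rose from 18.8 ± 2.71 to 2900 ± 234 CPM, by 7.27 ± 0.15 (adjusted p = 1.4e-09 in the edgeR fit), in all 3 libraries. That sum covers every transcript paired with the gene. Which transcript carried the rise is not given here, so a rise of the full kinesin message is not shown. Dmrtc1a, an X-linked relative of Dmrtc1c2, rose by 3.45 ± 0.71 (adjusted p = 0.0154 in the edgeR fit), a call that was lost without heterozygous replicate 2 (adjusted p = 0.056) or knockout replicate 2 (adjusted p = 0.0771). The 5 called lower, named after their values were seen, were the collagens Col9a1, Col7a1 and Col4a6, the kinesin Kif26b and the phosphatase Ptpn1. Col9a1, a cartilage collagen chain, went from 30.7 ± 2.16 to 12.1 ± 2.61 CPM and fell by 1.34 ± 0.15 on the log2 scale (adjusted p = 0.000393 in the edgeR fit). Its call held in each of the 6 fits that leave out 1 library. For the other 4 the adjusted p in the edgeR fit was 0.034 to 0.0431, and their calls held in 1 of the 6 such fits for Col4a6, Col7a1 and Kif26b and in 0 for Ptpn1, with adjusted p up to 0.158. Igbp1 and Nxf1, ubiquitous relatives of Igbp1b and Nxf3, missed the threshold in the edgeR fit. Values for the ubiquitous partners of other members are not given here. Igbp1 was at 124 CPM in heterozygous and 114 CPM in knockout libraries (log2 fold change -0.12 ± 0.09, edgeR adjusted p = 0.48), and scaled by library totals at -0.28 (adjusted p = 0.0419). Nxf1 was at 103 and 118 CPM (0.19 ± 0.08, edgeR adjusted p = 0.213). Serpinb1a, a relative of Serpinb1c, was at 2.02 and 6.07 CPM (1.58 ± 0.48, edgeR adjusted p = 0.103), and was called higher by DESeq2 (adjusted p = 0.00293) and by edgeR without knockout replicate 3 (adjusted p = 0.0289).

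Genes next to the members on the chromosome split by the kind of neighbour. The nearest tested genes on each side that are no members numbered 104, at a median distance of 53.55 kb on NCBIM37. Of these 19 were called higher (18.3%) and 0 lower, against 4.92% and 1.92% of all tested genes. Among the 80 neighbours that the symbol filter keeps, 5 were higher (6.25%), against 4.06% of the 14592 tested genes of that kind. Among the 24 neighbours that the filter drops, 14 were higher (58.3%), against 10.2% of tested genes of that kind, and 11 neighbours met the rule for switched-on genes themselves. A gene silent in the heterozygous libraries could be tested only through its knockout counts. Nearer genes that stayed silent were passed over. This choice can raise the shares of neighbours called higher, so nothing is read from them. The 5 higher among the neighbours that the filter keeps were Ccdc46 beside Apoh, Bex2 and Bex4 beside Nxf3, Krt75 beside Krt5 and Dmrtc1a beside Dmrtc1c2. They were named after their values were seen. Ccdc46, 10.8 kb from Apoh, rose by 0.76 ± 0.09 on the log2 scale (edgeR adjusted p = 0.000645), with 50.9 ± 5.28 CPM in the heterozygous group and 86.3 ± 3.66 CPM in the knockout group (SD, n = 3 each). Prkca, whose span overlaps Apoh, was at 7.62 and 5.55 CPM (-0.46 ± 0.19, edgeR adjusted p = 0.188). Krt75 rose by 1.08 ± 0.27 (edgeR adjusted p = 0.042), a call lost when any library except knockout replicate 1 was left out (adjusted p from 0.0772 to 0.124).

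Members and dropped genes shared neighbourhoods. Within 200 kb of another member lay 6 members: Olfr857 with Olfr58, Pramef6 with Pramef17, and Serpinb1c with Serpinb1-ps1. Within 200 kb of a dropped switched-on gene lay 10 members: BB287469, BC080695, AA623943, DXBay18, Krtap5-5, Pramel3, Pramef6, Pramef17, Serpinb1c and Serpinb1-ps1. The DXBay18 gene span overlaps that of Xlr5b, which was at 0 in the heterozygous libraries and at 1.41 CPM on average in the knockout libraries. Of these 10 genes 7 were not single copy, so their counts may be split between a member and its neighbours. Apoh, Nxf3, Cyct, Duoxa2 and Ptprq had no other switched-on gene within that distance.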

How the data were processed

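RNA-seq of 6 libraries (3 heterozygous, 3 knockout) was analysed from the deposited kallisto tables. Per the file headers, the authors deposited estimated counts (which need not be whole) and TPM for each of 96626 transcripts. The submitters' processing notes name mm10 as the build. Not given in the sources used here are the kallisto version, the index annotation and the strandedness. GENCODE vM1 on NCBIM37 paired 74519 transcripts with 26567 genes, which held 92.4% to 92.82% of the counts, and no sample column was left unused (0). Counts were summed per gene for the rule and rounded for the fit. The fit was edgeR 4.0.16 (quasi-likelihood, TMM, filterByExpr, robust; limma 3.58.1, R 4.3.3) with Benjamini-Hochberg adjustment at 0.05 over 16989 genes, and was tested on simulated data. CPM values use TMM library sizes, ± is SD over 3 libraries, and ± after a log2 fold change is its SE. Folds against fewer than 1 count are bounds at 3 counts per heterozygous library, and ratios carry exact 95% binomial counting intervals.

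The members, gene lists and tests were chosen with earlier results of these data known. Genes were named by a rule: Dnmt1, the 24 single-copy protein-coding members with the highest CPM, members near the limits, close together, in 1 family or extreme in spread, at most 2 relatives per symbol stem, and called neighbours; the rest of the members, and neighbours said to be so, were named after their values were seen. Copy number was read from 31-base words of NCBIM37, distances are on that build, and promoters are RefSeq sequences on GRCm38.p6. No promoter entry was matched for 18 members. Marker lists for germline, endothelial, macrophage, erythroid, neuronal, muscle, stromal, tubular, ureteric bud, cap mesenchyme, gonad and placental genes were read as sums. Alternatives were DESeq2 1.42.0, its size factors, library totals, TPM on log2 scales, other limits and filters, the replicate number as a block and each library left out. Sex as a covariate and leaving out members that share exon bases (49 remain) were added after seeing the data. Not every gene that the naming rule takes is reported here.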

Additional observations from a re-analysis of the deposited data

Results flagged for a closer look

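Signal outside the gene measurement was found in the 22107 transcripts that could not be paired with a gene and so entered no comparison. Of these, 9242 were silent in the heterozygous libraries by the same limit, and 124 met the same rule as single transcripts (0.561% of the 22107), while 4 met the reverse rule (0.0181%). The reference tables used here do not name these transcripts, and their relation to the 54 members was not tested.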

How the results depend on the processing

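The count of members moved from 54 to 28 when no count was allowed in the heterozygous libraries, to 99 with up to 10 counts there and to 91 with at least 5 counts in each knockout library, and lay between 62 and 83 with the rule read on 5 libraries, which loosens it by construction. All switched-on genes moved from 159 to 97 and 243 with a heterozygous limit of 0 and 10, and to 80 with single-copy leading transcripts only; with 1 library left out they numbered 175 to 205. Genes called higher moved from 836 to 1346 with DESeq2, 457 with limma on log2(TPM + 1), 454 on log2(TPM + 0.1) and 548 on log2(TPM + 1) without a filter, and ranged from 526 to 916 with 1 library left out. Genes called lower moved from 327 to 586 with DESeq2, 1883 with library totals, 761 and 756 on the 2 filtered TPM scales and 162 with sex as a covariate, which was added after the data were seen, and ranged from 116 to 272 with 1 library left out. Family relatives called higher moved from 10 to 23 with DESeq2, 4, 4 and 6 on the 3 TPM scales and 5 with sex as a covariate, with a range of 4 to 21 when 1 library was left out. Neighbours called higher stayed between 13 and 24 over all these settings. The share of genes that passed in a left-out knockout library was 81.0% over the 3 choices, 73.6% with a minimum of 5 counts and 88.5% with 20. For a left-out heterozygous library it was 78.4%, and 69.4% and 83.8% with limits of 0 and 10. The median spread of members between knockout libraries was 0.19, and 0.31 with a pseudocount of 0.1. The median CpG ratio lay between 0.28 and 0.34 over the windows for all members and between 0.31 and 0.38 for single-copy members. For named genes that are no members, 579 values kept their side of the threshold, 52 lost the call, 22 gained it and none turned direction. Same-numbered libraries had correlations of -0.058, -0.048 and -0.031, so the numbers did not pair them; with the replicate block there were 707 genes higher, 265 lower, 7 relatives and 17 neighbours higher. Where causes of these shifts are not stated, the cause was not tested. Depth limits the members: a heterozygous total of 0 to 3 counts gives a bound or a wide interval, and 18 members had under 20 counts in a knockout library.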
